A study of Mus musculus with 6 samples.

Results

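Cadherins are surface proteins that hold neighbouring cells together through calcium-dependent contacts and tie those contacts to actin through the catenins. E-cadherin (Cdh1) and P-cadherin (Cdh3) are the family members of epithelia, while fibroblasts are known for cadherin-11 and N-cadherin and blood and lymph vessels for VE-cadherin (Cdh5). The Cadm proteins are adhesion molecules of the immunoglobulin family that bind across cells without calcium. Described here are 9 genes listed by name: 7 cadherins outside the epithelial group (Cdh2, Cdh4, Cdh6, Cdh10, Cdh11, Cdh13 and Cdh19) and the adhesion genes Cadm1 and Cadm3. They are 9 of 49671 genes counted, and all 9 were among the 15608 with enough reads to be tested.

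RNA was sequenced from 6 libraries of tumour cells carrying Podoplanin, 3 of a GFP and 3 of a Tomato fraction. The hosts were C57BL/6J mice with Rosa-mTmG, a reporter that makes Tomato until Cre recombinase turns it to GFP, and with Fabp4-Cre, in which the Fabp4 promoter drives Cre. Both fractions came from such mice: FC1199 mouse pancreatic cancer cells were placed in the pancreas at 8 weeks of age and tumours were left untreated for 4 weeks, so the hosts were aged 12 weeks. The labels call GFP cells cancer-associated fibroblasts (CAFs) derived from stellate cells and Tomato cells CAFs of other derivation. A single cancer line was used, and the Fabp4 promoter is also known to be active in fat, endothelial and myeloid cells. Podoplanin is known on lymphatic endothelium and mesothelium as well as on fibroblasts.

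Total counts per library were 33378377 to 42154933. Levels are given as CPM (counts of a gene relative to the scaled library total, with TMM scaling) or, to compare genes with each other, as CPM per kb of exon. Fibroblast markers were abundant in both fractions, with 10 genes that summed to 129000 to 144000 CPM in GFP and 63200 to 96200 CPM in Tomato. The collagen genes Col1a1, Col1a2 and Col3a1 made up most of these sums. Of the 10 genes 6 were higher in GFP and none lower, and Dcn, Lum, Fap and Vim did not pass. Of 6 lymphatic endothelial markers, 5 were higher in GFP and Ccl21a had no read (3 were higher with no filter on low counts), with sums of 305 to 483 CPM in GFP and 25.1 to 79.0 CPM in Tomato. Of 8 mesothelial markers 7 were lower in GFP (145 to 166 against 1160 to 1450 CPM), as were all 8 macrophage markers (119 to 197 against 882 to 2240 CPM) and 5 of 7 epithelial and cancer cell markers (49.2 to 59.8 against 385 to 447 CPM). Wt1, the mesothelial marker that did not pass, made up most of the GFP mesothelial sums (85.6 to 118 CPM, against 101 to 110 CPM in Tomato). The keratin genes Krt7, Krt8 and Krt18 made up most of the epithelial and cancer cell sums, and Cldn4 and Cldn7 did not pass. Epcam, at a mean of 4.94 CPM in GFP and 12.3 CPM in Tomato, differed less than these keratins. Krt19, another keratin gene, stood among the mesothelial markers (16.6 and 173 CPM), and the cell source of the keratin reads was not tested. In such bulk samples, fewer cells of a type and less RNA per cell cannot be told apart.

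Of the 9 genes, Cdh13 and Cdh19 were higher in GFP, Cadm1 was lower, and 6 did not pass the test (edgeR quasi-likelihood test, Benjamini-Hochberg adjusted p under 0.05 over all genes). Across all genes tested, 28.9% passed in either direction, 13.1% as higher and 15.7% as lower in GFP. The median log2 fold change (GFP over Tomato throughout) of the 9 genes was 0.00, the same as that of all genes tested. The fractions did not overlap in CPM for Cdh13, Cdh19 and Cadm1, which are 3 of 9, while 48.6% of all genes tested did not overlap. With the replicate number as a block, 3 of the 9 genes passed as higher (Cadm3 joined Cdh13 and Cdh19) and 2 as lower (Cdh2 joined Cadm1), while 41% of all genes tested passed in either direction. No result about the 9 genes as a group is read from these shares, and each gene is described in turn.

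**Figure D1:**
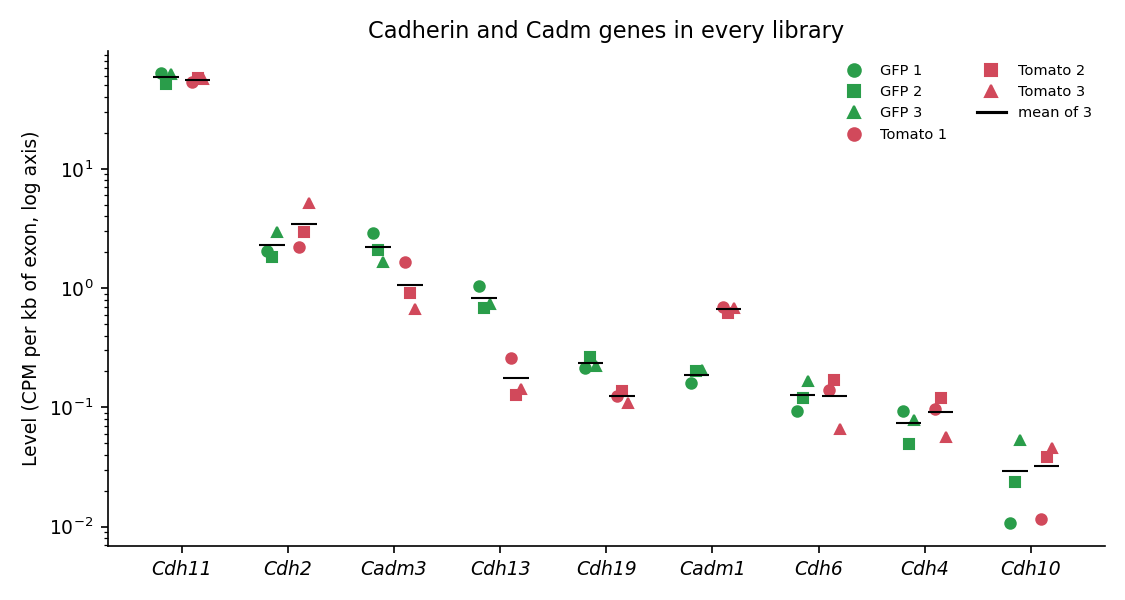
Level of each gene in CPM per kb of exon (log axis) in each library, with GFP libraries in green, Tomato libraries in red, the replicate number as the symbol and the mean of 3 as a bar. Cdh11 stood far above the others, at 51.3 to 63.3 in every library, and the fractions were apart for Cdh13, Cdh19 and Cadm1.

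Per kb of exon, Cdh11 held most of the signal of these genes in both fractions. Its level was 58.8 ± 6.55 CPM per kb (SD, n = 3) in GFP and 55.9 ± 2.37 in Tomato, which was 89.0% to 91.9% of the sum over the 9 genes in each library. Cdh2 came next in both, at 2.29 ± 0.61 in GFP and 3.46 ± 1.54 in Tomato. In GFP the order went on with Cadm3 (2.20), Cdh13 (0.819), Cdh19 (0.234), Cadm1 (0.188), Cdh6 (0.126), Cdh4 (0.0733) and Cdh10 (0.0292). In Tomato it was Cadm3 (1.07), Cadm1 (0.666), Cdh13 (0.177), Cdh6 (0.126), Cdh19 (0.124), Cdh4 (0.0910) and Cdh10 (0.0320). Neighbours in the order whose libraries overlapped were, in GFP, Cdh2 with Cadm3, Cadm1 with Cdh6, Cdh6 with Cdh4, and Cdh4 with Cdh10. In Tomato they were Cadm3 with Cadm1, Cdh13 with Cdh6, Cdh6 with Cdh19, and Cdh19 with Cdh4.

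Cdh2 encodes N-cadherin, the classical type I cadherin of mesenchyme, nerve and muscle, which some carcinoma cells gain when they lose E-cadherin. It had 16.6, 14.8 and 24.0 CPM in GFP replicates 1, 2 and 3 and 17.9, 24.0 and 41.8 CPM in Tomato replicates 1, 2 and 3. The fractions overlapped, and replicate 3 was the highest library of each. The log2 fold change was -0.59 ± 0.33 (SE), with a 95% interval of -1.37 to 0.18 and an adjusted p of 0.209. Without Tomato replicate 3 it was -0.19 (adjusted p = 0.589). With the replicate number as a block Cdh2 passed as lower in GFP, at -0.54 (adjusted p = 0.0134). Among Tomato libraries, replicate 3 also had the highest sums of epithelial and cancer cell markers (447 CPM) and of macrophage markers (2240 CPM). The same held for pericyte (152 CPM) and smooth muscle markers (867 CPM). GFP replicate 3 likewise had the highest GFP sums of epithelial and cancer cell (59.8 CPM), pericyte (164 CPM) and smooth muscle markers (861 CPM). Its macrophage sum was not the highest. The part of these cells in the Cdh2 levels was not tested.

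Cdh4 encodes R-cadherin, a type I cadherin first known from the retina. It rested on 12 to 34 reads per library, or 0.358 to 0.875 CPM. Its log2 fold change was -0.31 ± 0.38 (95% interval -1.18 to 0.56, adjusted p = 0.56). The libraries of both fractions overlapped, and the interval covers changes in either direction.

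Cdh11, on chromosome 8 (102632095 to 102785642, GRCm38), encodes cadherin-11, a type II cadherin of mesenchyme that is known to hold fibroblasts together. GFP replicates 1, 2 and 3 had 563, 457 and 551 CPM and Tomato replicates 1, 2 and 3 had 476, 517 and 501 CPM. All 3 Tomato values lay inside the range of GFP. The log2 fold change was 0.07 ± 0.11 (adjusted p = 0.646), and its 95% interval of -0.18 to 0.33 is the narrowest among the 9 genes, from 15304 to 20927 reads per library. Its sign turned under library size scaling alone (-0.10) and with offsets for exon length and GC content (-0.08). Scaling by library size alone put the median over all tested genes at -0.16. Fibroblast marker sums, which come mostly from collagen genes, did not overlap between the fractions, whereas the Cdh11 levels did. The levels of the fibroblast markers Dcn, Lum, Fap and Vim overlapped as well.

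Cdh6 and Cdh10 are type II cadherins known from kidney and nervous tissue. Cdh6 had 22 to 60 reads per library (0.597 to 1.54 CPM) and a log2 fold change of 0.00 ± 0.38 (95% interval -0.87 to 0.86). Cdh10 had 4 to 19 reads per library (0.108 to 0.535 CPM) and a log2 fold change of -0.11 ± 0.65 (95% interval -1.59 to 1.36). The adjusted p were 0.994 and 0.91. Both genes were low in every library, and the fractions overlapped. In GFP, Cdh10 varied by 74.6% of its mean between libraries, against 11.1% for Cdh11.

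Cdh19, on chromosome 1 (110888326 to 110977584), encodes a type II cadherin known from neural crest and Schwann cell precursors. It had 0.915, 1.13 and 0.958 CPM in GFP replicates 1, 2 and 3 and 0.537, 0.592 and 0.462 CPM in Tomato replicates 1, 2 and 3. Every GFP library was above every Tomato library, on 17 to 38 reads each. It was higher in GFP by a log2 fold change of 0.91 ± 0.27, or 1.88-fold (adjusted p = 0.0354). This call was lost when any of the 6 libraries was left out (adjusted p 0.0716 to 0.101), by DESeq2 (0.0716) and under library size scaling alone (0.75, adjusted p = 0.066). It was also lost with no filter (0.0844) and with a single strand column (0.61, adjusted p = 0.185), which holds only part of the same reads.

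Defining genes of Schwann cells and other glia differed in level. Among 12 such markers Foxd3 and Pmp2 had no read in any library, and Sox10, the factor gene that defines the lineage, had 1 read in a single Tomato library. Of the 8 markers tested, 2 were higher (Ngfr and Egr2) and 3 lower in GFP (Mbp, Erbb3 and Gfap). Mbp, a gene of the myelin sheath, had 9.64 to 10.2 CPM in GFP and 26.5 to 32.5 CPM in Tomato, and the mean levels of Erbb3 were 0.711 and 2.56 CPM. Ngfr had a mean of 2.41 CPM in GFP and 1.40 CPM in Tomato, and S100b, at 2.34 and 1.97 CPM, did not pass (adjusted p = 0.654). The list summed to 404 to 457 CPM in GFP and 219 to 329 CPM in Tomato, of which Egr2, an immediate early gene also made outside glia, gave 387 to 440 and 186 to 292 CPM. The part of glial cells in the Cdh19 difference was not tested.

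Cdh13, on chromosome 8 (118283733 to 119324921), encodes T-cadherin. It lacks the cytoplasmic tail of other cadherins, is held in the membrane by a lipid anchor, and is known from endothelium and smooth muscle, where it binds adiponectin. GFP replicates 1, 2 and 3 had 11.7, 7.67 and 8.20 CPM, and Tomato replicates 1, 2 and 3 had 2.94, 1.42 and 1.60 CPM. The lowest GFP library was far above the highest Tomato library. Cdh13 was higher in GFP by a log2 fold change of 2.20 ± 0.30, or 4.61-fold (95% interval of the log2 value 1.52 to 2.89, adjusted p = 0.00162). The ratio within libraries of equal number was 3.99, 5.42 and 5.12. It passed in all 16 alternative settings, with log2 fold changes of 1.99 to 2.60.

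Endothelial markers were higher in GFP along with Cdh13. The sums of lymphatic markers were 483, 348 and 305 CPM in GFP replicates 1, 2 and 3 and 79.0, 50.2 and 25.1 CPM in Tomato replicates 1, 2 and 3. In both fractions replicate 1 had the most Cdh13 and the largest of these sums, whereas replicate 3 had more Cdh13 than replicate 2 and a smaller sum. Of 10 pan- and blood endothelial markers 6 were higher in GFP and none lower, with sums of 137 to 211 CPM in GFP and 66.6 to 93.1 CPM in Tomato. Tomato replicate 2 had the largest of these sums in its fraction and the least Cdh13. A large part of the Tomato sums was Kdr alone, at 42.7, 59.9 and 46.4 CPM in Tomato replicates 1, 2 and 3. Kdr did not pass (log2 fold change -0.39, adjusted p = 0.151). Pericyte markers went both ways, with 3 of 7 tested higher and 1 lower (107 to 164 against 102 to 152 CPM). None of 6 smooth muscle markers passed, and their sums, mostly Acta2, overlapped between the fractions (554 to 861 against 581 to 867 CPM). Des and Smtn did not overlap, in opposite directions. The part of endothelial cells in the Cdh13 difference was not tested. Adipoq, which encodes adiponectin, had 0 to 5 reads per library, and neither of the adiponectin receptor genes Adipor1 and Adipor2 passed (log2 fold changes -0.01 and -0.16, adjusted p = 0.932 and 0.314).

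**Figure D2:**
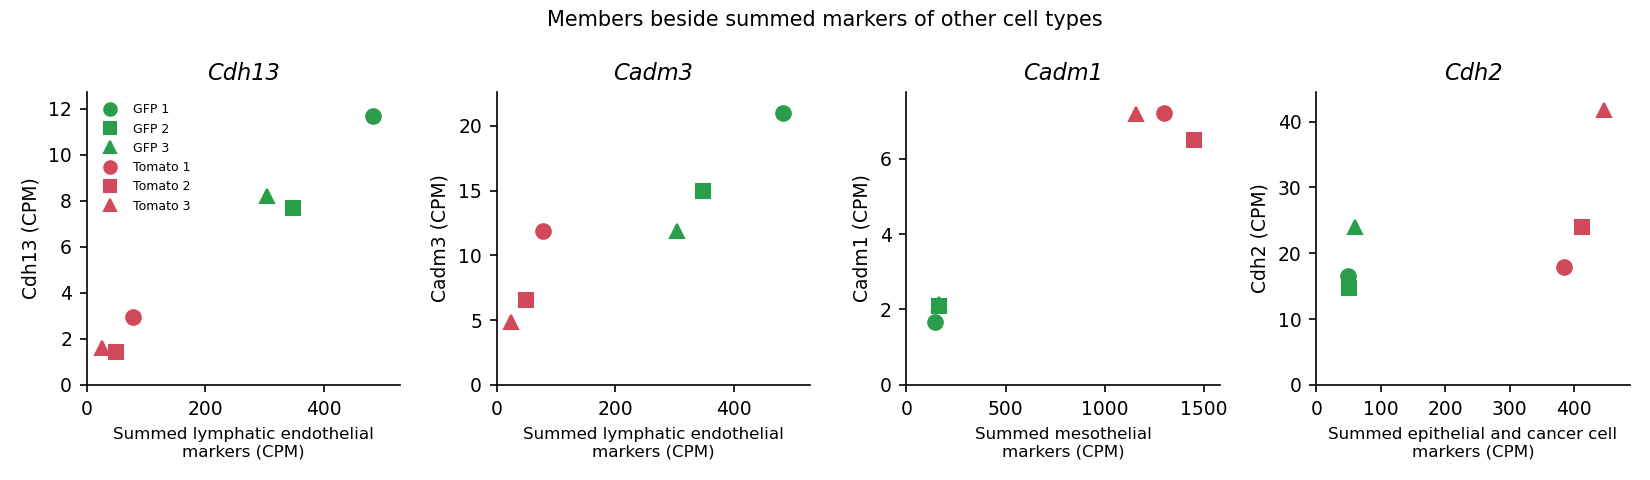
Each panel plots a gene in CPM against the summed CPM of a marker list, with 1 point per library, GFP in green and Tomato in red. Cdh13 and Cadm3 are set against lymphatic endothelial markers, Cadm1 against mesothelial and Cdh2 against epithelial and cancer cell markers. Replicate 1 of each fraction is the highest of its fraction in the panels of Cdh13 and Cadm3, and Tomato replicate 3 is the highest in that of Cdh2.

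Cadm1, on chromosome 9 (47530173 to 47857637), encodes an adhesion molecule of epithelia, nerve, mast cells and some dendritic cells that was described as a tumour suppressor in carcinoma. GFP replicates 1, 2 and 3 had 1.67, 2.09 and 2.14 CPM and Tomato replicates 1, 2 and 3 had 7.21, 6.49 and 7.17 CPM. Libraries of the same fraction were close together and the fractions were far apart. Cadm1 was lower in GFP, with a log2 fold change of -1.82 ± 0.17 (95% interval -2.21 to -1.44, adjusted p = 0.000287), which is a level 3.53-fold higher in Tomato. It passed in all 16 alternative settings, with log2 fold changes of -2.01 to -1.71.

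Mesothelial, macrophage and epithelial markers were lower in GFP along with Cadm1. Within Tomato, Cadm1 varied by 5.84% of its mean while the macrophage sum ran from 882 to 2240 CPM. The mesothelial and epithelial sums varied less there (1160 to 1450 and 385 to 447 CPM). The part of these cells in the Cadm1 difference was not tested.

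Cadm3, on chromosome 1 (173333258 to 173367695), encodes a Cadm protein best known from neurons, where it binds other Cadm proteins on facing cells. GFP replicates 1, 2 and 3 had 21, 15.0 and 11.9 CPM and Tomato replicates 1, 2 and 3 had 11.9, 6.59 and 4.83 CPM. The lowest GFP library and the highest Tomato library were at nearly the same level, so the fractions overlapped by a narrow margin. The log2 fold change was 1.03 ± 0.35, or 2.05-fold (unadjusted 95% interval of the log2 value 0.20 to 1.86), and the adjusted p of 0.0652 did not pass.

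Libraries of equal number showed the Cadm3 difference each time, with ratios of 1.76, 2.28 and 2.45. With the replicate number as a block Cadm3 passed as higher in GFP (1.09, adjusted p = 0.000316). It also passed by DESeq2 (1.04, adjusted p = 0.00543), by limma-voom (1.08, adjusted p = 0.0358), with a filter of 1 CPM in 3 libraries (1.03, adjusted p = 0.0488) and without Tomato replicate 1 (1.47, adjusted p = 0.00462). As for Cdh13, the highest library of each fraction was that with the most lymphatic endothelial marker reads, and the part of those cells was not tested. Cadm3 shares 361 of its 7248 exonic bases (4.98%) with the neighbouring gene Ackr1 on the same strand, a chemokine receptor gene known from venules. Ackr1 was higher in GFP (3.64 ± 0.824 against 1.66 ± 0.446 CPM, log2 fold change 1.13, adjusted p = 0.0157), but did not pass when GFP replicate 1 (0.0631), GFP replicate 2 (0.0553) or Tomato replicate 2 (0.0623) was taken out. The sources used here do not say how reads in the shared bases were assigned.

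The balance of the Cadm genes differed between the fractions. Per kb of exon, the level of Cadm3 over that of Cadm1 was 18.1, 10.4 and 7.98 in GFP replicates 1, 2 and 3 and 2.38, 1.46 and 0.971 in Tomato replicates 1, 2 and 3, with no overlap. Cadm4, known from Schwann cells and epithelia, was lower in GFP like Cadm1, at 16.3, 19.3 and 27.6 CPM against 35.4, 50.9 and 85.2 CPM (log2 fold change -1.44 ± 0.34, adjusted p = 0.0212). Cadm4 did not pass when GFP replicate 1 (adjusted p = 0.0515) or GFP replicate 2 (0.0616) was taken out, nor with no filter (0.116). Cadm2 had almost no reads and was not tested.

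**Figure D3:**
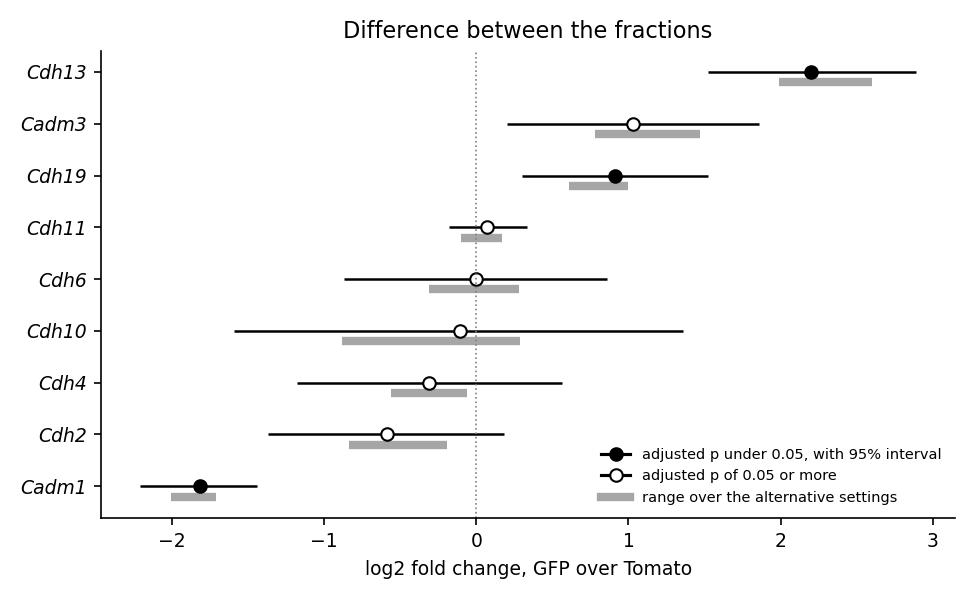
Log2 fold change of each gene, GFP over Tomato, with its 95% interval as a thin line and the range over the alternative settings as a grey bar. Filled points, for Cdh13, Cdh19 and Cadm1, passed at an adjusted p under 0.05, and the intervals of Cdh6 and Cdh10 reach widely to both sides of 0.

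Genes with the most similar pattern were sought among 8909 protein-coding genes with a mean of at least 10 CPM, by the root mean square difference of log2 CPM centred over the 6 libraries. The pattern takes in the difference between the fractions, so near genes tend to have a like fold change by the way they were chosen. The gene most like Cdh13 was Pecam1, the general endothelial adhesion gene (difference 0.157, with 25.3 against 5.64 mean CPM), followed by Apold1 (0.271), an early response gene of vessels. Those most like Cadm1 were the B cell chemokine gene Cxcl13 (0.147) and Nceh1 (0.159), a cholesterol ester hydrolase gene. Nearest to Cadm3 were Plcb4 (0.104) and Limch1 (0.110), and nearest to Cdh19 were Fam174b (0.076) and the lipoprotein lipase gene Lpl (0.097). Cdh2 was closest to the lactate transporter gene Slc16a3 (0.106) and the integrin gene Itgb8 (0.113). Cdh11 was closest to the ubiquitin ligase genes Ube3c (0.025) and Arih2 (0.032), each with a log2 fold change of 0.05 that did not pass. Nearest to Cdh4 were Tmtc1 (0.167) and Zdhhc15 (0.239), nearest to Cdh6 were Deptor (0.195) and Fmod (0.209), and nearest to Cdh10 were Prr9 (0.292) and Cnn1 (0.310).

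Other cadherins of the classical groups were few. Of 12 such genes 4 had enough reads to be tested, of which 1 was higher and 2 were lower in GFP. Cdh5, the endothelial cadherin gene, had 17.4, 10.3 and 8.03 CPM in GFP replicates 1, 2 and 3 against 2.12, 1.11 and 0.516 CPM in Tomato. The epithelial genes Cdh1 (4.66, 2.75 and 3.21 against 7.79, 9.99 and 17.9 CPM) and Cdh3 (2.53, 5.64 and 7.21 against 19.8, 29.6 and 28.7 CPM) were lower, with log2 fold changes of -1.74 ± 0.34 (adjusted p = 0.0096) and -2.35 ± 0.36 (adjusted p = 0.00457). Among Tomato libraries Cdh2 and Cdh1 were both highest in replicate 3. Among GFP libraries Cdh1 was highest in replicate 1 and Cdh2 in replicate 3.

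Catenins, the proteins that link cadherin tails to actin, had small differences for the most part. Of 13 genes of catenins and junction adaptors, 11 were tested, 1 was higher and 1 lower, with a median log2 fold change of 0.06. Ctnnb1 (beta-catenin), Ctnna1 (alpha-catenin) and Ctnnd1 (p120 catenin) did not pass, at log2 fold changes of 0.14, 0.06 and 0.04 (adjusted p = 0.314, 0.722 and 0.794). Jup, which encodes plakoglobin, was higher by 0.43 ± 0.08 (adjusted p = 0.00671), and did not pass with the offsets for length and GC (0.21, adjusted p = 0.0783). Plekha7, an adaptor of the epithelial zonula adherens, was lower by -1.40 ± 0.20 (adjusted p = 0.00178).

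Among 10 genes for maturation and shedding of cadherins, 3 were higher and 1 lower. Furin and Pcsk7 encode convertases that cut off propeptides, and they were higher by 0.40 ± 0.10 (adjusted p = 0.0185) and 0.41 ± 0.10 (adjusted p = 0.0165). The third was the related gene Pcsk5 (0.78 ± 0.20, adjusted p = 0.0226). Psenen, a subunit gene of gamma-secretase, which cuts cadherin stubs, was lower (-0.43 ± 0.12, adjusted p = 0.0285). It did not pass with the offsets for length and GC (-0.18, adjusted p = 0.156), with these offsets and the block (-0.17, 0.125), or without GFP replicate 1 (0.0995), GFP replicate 3 (0.0868), Tomato replicate 2 (0.0779) or Tomato replicate 3 (0.0594). None of the 3 rises passed when GFP replicate 1, GFP replicate 3 or Tomato replicate 2 was taken out, and 1 did under library size scaling alone or with the offsets for length and GC. With the replicate number as a block 5 were higher.

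Transcription factor genes known for the switch from E- to N-cadherin were mostly higher in GFP. Of 9 such genes 8 were higher and none lower, with a median log2 fold change of 0.59 beside 0.00 for all genes tested. Prrx1, a factor gene of mesenchyme, had 217, 208 and 190 CPM in GFP against 144, 116 and 97.4 CPM in Tomato (0.78 ± 0.14, adjusted p = 0.00525). Snai1, which encodes the E-cadherin repressor Snail, had 29.8, 33 and 38.8 CPM against 24.2, 21.3 and 21.8 CPM (0.59 ± 0.12, adjusted p = 0.00868). The other was Twist1, which did not pass (0.09, adjusted p = 0.521). The count was 5 when GFP replicate 1, GFP replicate 2 or Tomato replicate 2 was taken out, and 5 with the offsets for length and GC. Cdh2 itself was not higher in GFP in any setting tried. Fibroblast marker sums, which come mostly from collagen genes, were higher in GFP in the same libraries.

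Of the 9 genes of proteins that bind Cadm tails, 5 were higher and 1 lower. The scaffold genes Epb41l1 (0.56 ± 0.13, adjusted p = 0.0153) and Dlg1 (0.48 ± 0.12, adjusted p = 0.0202) were higher, as were Epb41l2, Epb41l3 and Cask, and Mpp1 was lower (-0.41 ± 0.11, adjusted p = 0.0259). Mpp1 did not pass without GFP replicate 1 (adjusted p = 0.0909), GFP replicate 3 (0.0856), Tomato replicate 2 (0.0844) or Tomato replicate 3 (0.0518). None of the 5 rises passed when GFP replicate 1 or Tomato replicate 2 was taken out, and 3 passed when GFP replicate 2 or 3 was. Under library size scaling alone 3 passed, and 3 with the offsets for length and GC. Among 11 other Cadm genes, nectins and their receptors, 6 were tested. Nectin1, whose product is an adhesion partner at adherens junctions, was higher (7.30, 9.67 and 10.8 against 4.78, 5.69 and 4.21 CPM, 0.92 ± 0.19, adjusted p = 0.00911), and Cadm4 was lower. The immune receptor genes Crtam and Cd226, known as receptors of Cadm1 and of Pvr and Nectin2, had almost no reads.

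**Figure D4:**
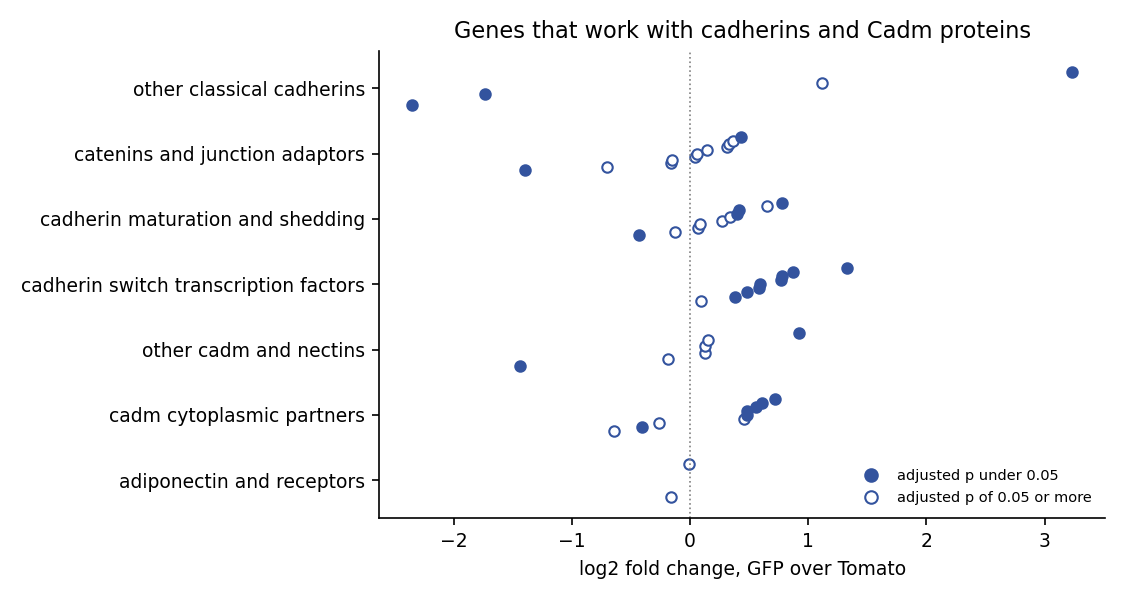
Log2 fold change, GFP over Tomato, of every tested gene in the lists of proteins that work with cadherins and Cadm proteins, 1 point per gene, filled where the adjusted p was under 0.05. In the list of transcription factors 8 of 9 points are filled and lie to the right of 0, while catenins centre near 0.

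Promoter sequence was at hand for 3 of the 9 genes. Of the factors listed above, the Snail, Zeb, Twist and Tcf3 proteins bind E-boxes, CANNTG, and Snail and Zeb proteins favour CACCTG, so both were searched on both strands in the 250 bases before the start site (CACCTG matches are also CANNTG matches). These are RefSeq windows of GRCm38.p6, placed by RefSeq start sites. That of Cdh10 (chr15:18820079-18820328, plus strand) lies inside its GENCODE gene model, which starts at 18818947. Cadm3 and Cdh6 are printed 5′ to 3′, as a gene that was higher in GFP in some settings and a gene with a log2 fold change of 0.00, with CANNTG in capitals. Cadm3 lies at chr1:173367696-173367945 and Cdh6 at chr15:13173676-13173925, both on the minus strand.
Cadm3: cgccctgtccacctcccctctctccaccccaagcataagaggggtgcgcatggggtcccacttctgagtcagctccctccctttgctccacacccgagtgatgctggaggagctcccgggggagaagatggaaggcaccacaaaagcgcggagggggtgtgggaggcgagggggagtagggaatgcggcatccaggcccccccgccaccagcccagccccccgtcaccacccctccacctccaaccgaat
Cdh6: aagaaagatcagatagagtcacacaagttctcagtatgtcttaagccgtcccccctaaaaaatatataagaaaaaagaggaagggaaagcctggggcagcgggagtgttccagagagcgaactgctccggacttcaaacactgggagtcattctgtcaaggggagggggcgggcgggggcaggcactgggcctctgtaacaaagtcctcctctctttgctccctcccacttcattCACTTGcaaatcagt
CANNTG occurred 0 times in the window of Cadm3, 1 time in that of Cdh6 and 4 times in that of Cdh10, and at least once in 66.2% of all 32851 windows of that length. CACCTG was in none of the 3 and in 17.2% of all windows. The window of Cadm3 was 66.8% G and C, that of Cdh6 51.2% and that of Cdh10 36.8%. A match is a run of letters and not a measured site, and its lack in these windows says nothing of other windows.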

How the data were processed

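The authors deposited a table of raw counts for each library, with columns for both strands together and for either strand, per the file headers. The submitters' processing notes name Trim Galore 0.4.3, STAR 2.5.2b and GRCm38, without roles. The annotation release is not given in the sources used here. Per the labels' protocols, an Illumina TruSeq kit was used on 150 ng of RNA. Total counts of 1 strand column over the other were 1.0022 to 1.0063 in the 6 libraries, so no column tells antisense reads apart. The column of both strands was used. Symbols and coordinates came from GENCODE M21 (GRCm38), which matched 49412 of 49671 identifiers.

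GFP was compared with Tomato by edgeR 4.0.16 in R 4.3.3 (quasi-likelihood F test, robust, two-sided, TMM, filterByExpr, no block), with Benjamini-Hochberg adjustment over 15608 genes. Standard errors are the log2 fold change over the root of F, and 95% intervals are not adjusted. The fit was tested on simulated data. Other tools were DESeq2 1.42.0 and limma 3.58.1. Whether replicates are different animals is not in the labels, and p-values then cover the spread between these libraries, which may be technical. No library was a duplicate of another (chi-square per degree of freedom 28 to 118). Libraries of equal number deviated together from their group means (correlations 0.403, 0.108 and 0.347, against -0.392 to 0.028 for unequal numbers). By the limit of 0.1 equal numbers were taken to pair the libraries, on the data and not on the labels. The value of 0.108 lay barely above that limit. Correlations of deviations from means of 3 libraries are not independent, so the pairing is not settled. The main test has no block, and the values with the block are given beside it where a call changed.

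The genes, lists and tests were chosen with earlier results of these data known. The rule for named genes took all 9 members, up to 2 genes higher and 2 lower with the smallest adjusted p in each partner list, and the 2 nearest genes by pattern (log2 CPM with a prior count of 2). Twist1, Ctnnb1, Ctnna1, Ctnnd1, Ackr1, Cadm2, Crtam, Cd226, Adipoq, Adipor1, Adipor2, Pcsk5, Epb41l2, Epb41l3, Cask and the single markers were named after their values were seen. Offsets for exon length and GC content came, in each library, from splines (4 degrees of freedom). Reads of a gene below 1 CPM are few, and precision there is low. The values of 2 single markers are not reported here.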

Additional observations from a re-analysis of the deposited data

How the results depend on the processing

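Cdh13 and Cadm1 kept their direction and their call in all 16 alternatives. Cdh19 kept its direction in the 15 that tested it and its call in 5. Cadm3 kept its direction in 16 and passed in 6, among them the replicate block joined to offsets for length and GC (0.92, adjusted p = 0.000973). Cdh2 kept its direction in 16 and passed in 2, the replicate block (-0.54) and the block joined to those offsets (-0.70, adjusted p = 0.00653). Cdh4, Cdh6, Cdh10 and Cdh11 passed in none of the settings that tested them.

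The members higher in GFP, 2 in the report, were 1 under library size scaling alone, 1 with no filter and 1 with a single strand column, and 1 to 2 when a library was left out. They were 3 by limma-voom, 3 with the replicate block and 3 with the block and the offsets, with Cadm3 added. The count was 2 without Tomato replicate 1, by DESeq2 and with the 1 CPM filter, where Cadm3 stood in place of Cdh19, which that filter left out of the test. The members lower in GFP, 1 in the report, were 2 with the replicate block, and 2 with the block and those offsets, and 1 when any library was left out. All genes higher in GFP, 2049 in the report, were 1128 under library size scaling alone, 3137 with the replicate block and 833 to 2392 when a library was left out. All genes lower, 2456 in the report, were 3851 under library size scaling alone and 1380 to 2793 when a library was left out. Both counts moved by over 1.5 times without GFP replicate 1 (920 and 1380), GFP replicate 3 (1195 and 1551) or Tomato replicate 2 (833 and 1528). Of the calls under library size scaling alone, 22.7% were higher in GFP, against 45.5% with TMM, and the cause was not tested. The replicate block changed no other member's call. Cdh4, Cdh6, Cdh10 and Cdh19 rest on 4 to 60 reads per library, which limits what can be seen of them. The lists were run under the same alternatives, added after the data were seen.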
